A study of Mus musculus with 35 samples.

Results

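The genes described here encode the subunits, caps, inhibitor and assembly chaperones of the proteasome. A gene was a member when its whole symbol was Psm, then a letter from a to g, then a number, and when its array row carried that symbol alone. Of 19938 genes measured in this way, 48 were members: 8 of the 20S alpha ring, 8 of the 20S beta ring, 5 of the immunoproteasome, 6 ATPases and 11 other subunits of the 19S cap, 3 other caps or inhibitors, and 7 assembly chaperones. Symbols that only begin this way, such as Psmc3ip, were not members.

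The proteasome degrades proteins that carry ubiquitin chains. Its barrel, the 20S core, has outer rings of alpha subunits, which gate the entrance, and inner rings of beta subunits, some of which cut peptide bonds. The 19S cap binds ubiquitin chains, removes them, and threads the protein into the barrel with a ring of ATPases. Under interferon, cells can swap the cutting subunits for those of the immunoproteasome, which changes the peptides made for display to T cells. In skeletal muscle the ubiquitin-proteasome system is known for breaking down contractile proteins during wasting.

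Quadriceps muscle came from 2-month-old female mice of 4 classes, and each mouse gave 1 array. The classes were control mice, mice with the mstn-null genotype, and mice treated with ActRIIB-Fc, once or with 4 doses. ActRIIB-Fc is a receptor fragment that circulates and captures myostatin and related factors. Experiment 1 had 3 arrays per class, and an independent experiment 2 had 5 per class, or 8 for Mstn-null. Strain, the treatment of the controls, the amount of a dose, the time between dosing and dissection and the form of the null allele are details that the sources used here do not give. Myostatin, the product of Mstn, is secreted and holds back muscle growth. The comparisons ask which proteasome transcripts differ in muscle that lacks myostatin, and which differ after a soluble receptor that captures myostatin.

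Values are log2 expression values, so a difference of 1 is a doubling. Array medians differed between the experiments, so levels are given within an experiment, and a level is not compared between genes, whose probes differ. Mstn itself ran from 5.78 to 6.69 on Mstn-null arrays of experiment 1 and from 6.77 to 7.68 on its controls. In experiment 2 it ran from 6.29 to 7.84 against 9.84 to 10.21 in controls. Its change over both was -2.30 ± 0.23 SE (limma adjusted p = 3.54e-08), though which part of the gene its probes cover was not checked. Of 10 defining fast skeletal muscle genes, such as Ckm and Acta1, 2 were lower in Mstn-null muscle and 1 was higher (limma adjusted p under 0.05). Over all genes 16.4% were lower and 25.4% higher. The changes of the 10 ran from -1.30 to 0.15 with a median of 0.004, so the list did not fall as a whole. Their mean ran from 11.25 to 11.39 on Mstn-null arrays of experiment 1 and from 11.44 to 11.51 on its controls. In experiment 2 this mean ran from 12.99 to 13.47 on Mstn-null arrays, with replicates 2, 6, 7 and 8 below every array of the other classes, and from 13.35 to 13.48 on controls. Its part in the proteasome values was not tested. In a whole muscle, fewer cells of a type and less RNA per cell cannot be told apart.

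A property of the arrays bears on every Mstn-null result. The interquartile range of an array's log2 values, the spread between its dim and bright genes, was 2.74 to 2.84 on the Mstn-null arrays of experiment 1 and 2.87 to 3.03 on its controls. In experiment 2 it was 2.52 to 2.76 on Mstn-null arrays and 2.80 to 2.87 on controls. The treated classes ran from 2.71 to 2.95 in experiment 1, and their range in experiment 2 was 2.71 to 2.92. A narrower range means that bright genes lie closer to dim ones. When all genes were ranked by mean and cut into 10 equal groups, 29 of the 48 members lay in the brightest group, of 1993 genes.

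Mstn-null muscle had lower transcripts of the standard proteasome than control muscle, and the alpha ring and the 19S ATPases moved most often. Of the 48 members, 25 were lower, 3 were higher and 20 did not pass an adjusted p under 0.05 (limma, Benjamini-Hochberg over all 19938 genes). Over all genes 41.8% passed, 16.4% lower and 25.4% higher, and within the brightest group 43.6% were lower. Of the 29 members in that group 18 were lower (62.1%), and of the 19 others 7 were lower and 3 higher. The median log2 change of the members was -0.22, against 0.09 over all genes and -0.19 over the brightest group. With every array centred on its median, which moved the median of all genes to -0.02, 31 members were lower and 0 higher, against 22.1% and 7.4% of all genes.

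With the interquartile range of each array as a covariate, 0 members were lower and 1 was higher, and 3 had an unadjusted p under 0.05. The share of all genes under that unadjusted threshold is not given here. In that fit 1.48% of all genes were called, and the members' median change was -0.02, with 31 negative and 17 positive. The 1 member was Psme1, at 0.30 (limma adjusted p = 0.0459). The part of the array range in the members' fall was not tested. Only 2 members, Psma1 and Psmd4, were lower in experiment 1 alone, where 3 arrays stood against 3, and 25 were lower in experiment 2 alone. The shares of all genes lower in these fits of 1 experiment are not given here.

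**Figure D1:**
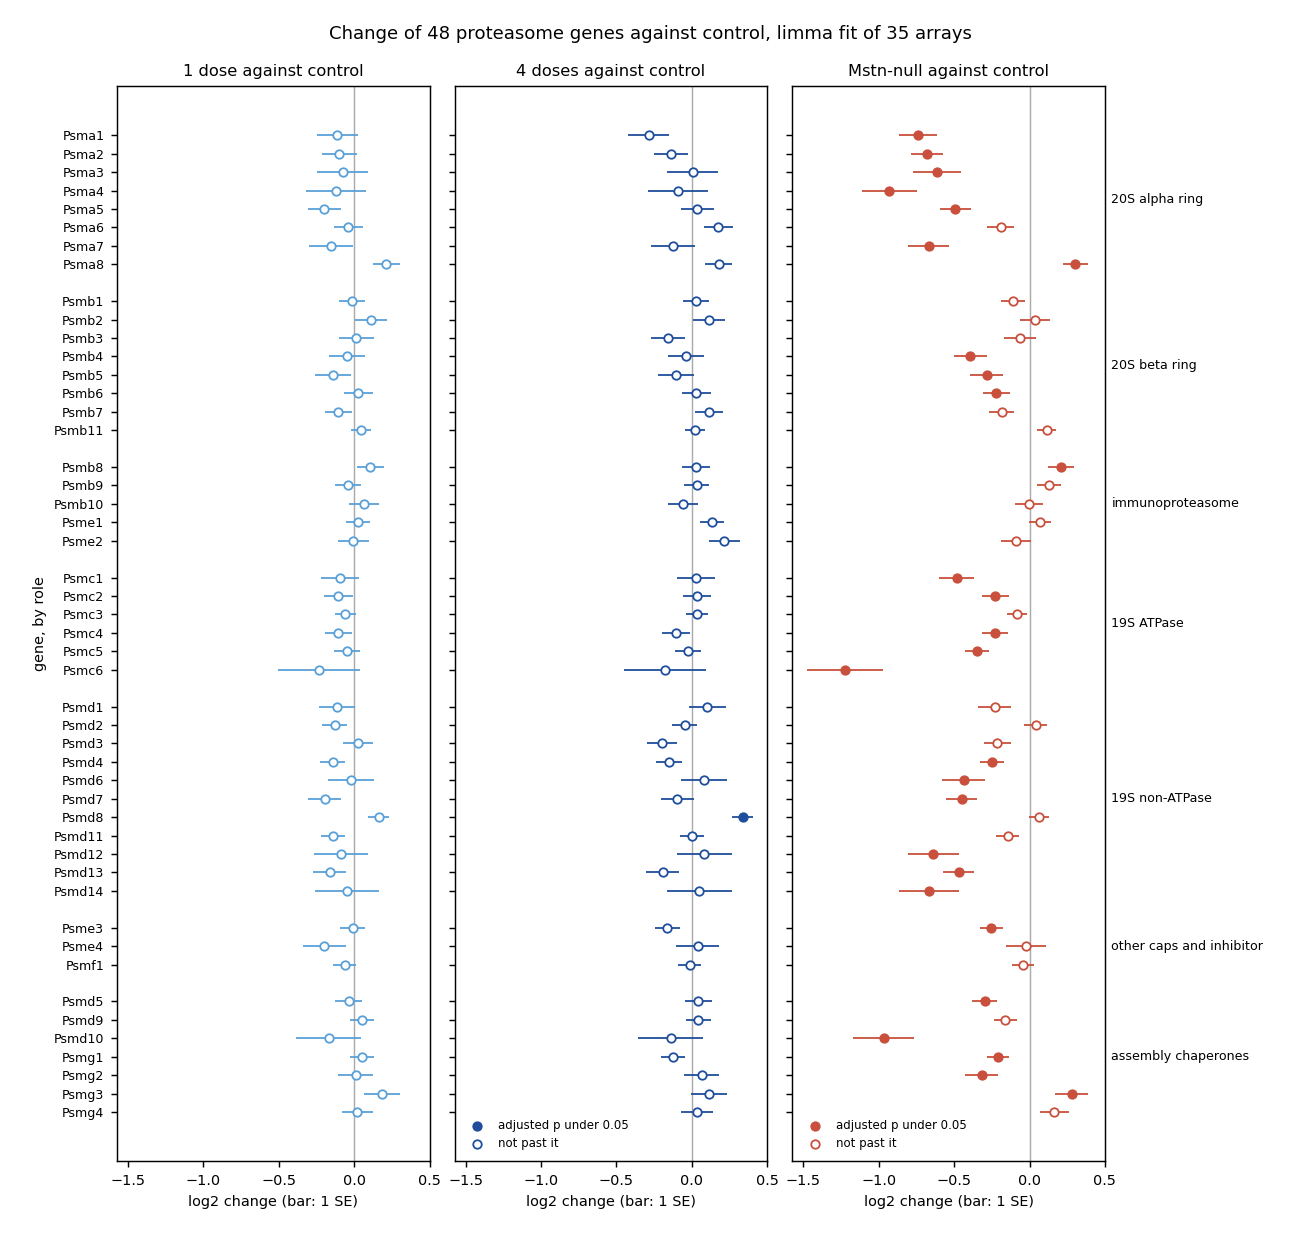
Log2 change of each of the 48 genes (vertical axis, grouped by role) against control after 1 dose, after 4 doses and in Mstn-null mice, with 1 standard error from the limma fit. Filled points passed an adjusted p under 0.05: 0 after 1 dose, Psmd8 after 4 doses, and 28 in Mstn-null muscle.

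The alpha ring forms the outer gate of the core, and 6 of its 8 genes were lower in Mstn-null muscle, with a median of -0.64. That is 75%, against 16.4% of all genes and 43.6% of the brightest group. Psma2 had the smallest p of all members. Its values in experiment 2 were 9.51, 9.63, 9.71, 9.68 and 9.54 in controls, while the 8 Mstn-null arrays ran from 8.49 through a median of 8.90 to 9.53. In experiment 1 controls read 6.95, 7.21 and 7.46 and Mstn-null arrays 6.52, 6.65 and 6.77. The classes did not overlap in experiment 1, and in experiment 2 only Mstn-null replicate 5 reached the controls. The log2 change was -0.68 ± 0.11 SE (limma adjusted p = 1.92e-05), and it was -0.33 (adjusted p = 0.156) with the array range as a covariate.

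Psma4, another subunit of this ring, had the largest fall in it. Controls of experiment 2 read 9.88, 10.04, 10.05, 10.24 and 10.14, and Mstn-null arrays ran from 8.19 through 8.97 to 10.09. In experiment 1 the values were 7.79, 7.62 and 8.10 in controls and 7.13, 7.11 and 7.33 in Mstn-null muscle, without overlap. The change was -0.93 ± 0.18 SE, 1.90-fold lower (limma adjusted p = 0.000267). The Mstn-null arrays of experiment 2 were spread far more widely than the controls.

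Psma1 fell by 0.74 on the log2 scale (± 0.13 SE, limma adjusted p = 5.84e-05). In experiment 1 controls read 7.87, 8.22 and 8.16 and Mstn-null arrays 7.17, 7.26 and 7.40. In experiment 2 controls ran from 10.03 to 10.27 and Mstn-null arrays from 9.08 through 9.40 to 10.21. Here 7 of the 8 Mstn-null arrays of experiment 2 lay at or below 9.61, and replicate 5 stood alone at 10.21. Psma7 changed by -0.67, Psma3 by -0.62 and Psma5 by -0.49. Psma3 was read by 3 array rows, which gave -0.66, -0.59 and -0.62, and Psma5 by a pair of rows at -0.49 and -0.45.

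The remaining alpha genes did not follow. Psma6 was at -0.19 (adjusted p = 0.0823). Psma8 encodes an alpha subunit known from testis and rose by 0.30 (± 0.08 SE, limma adjusted p = 0.00484) from low values, 4.57 to 4.84 in the controls of experiment 2 and 4.75 to 5.23 in Mstn-null muscle. Centred on each array's median, Psma8 no longer passed (adjusted p = 0.056).

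The beta ring holds the cutting sites, and fewer of its genes fell, with 3 of 8 lower (37.5%) and a median of -0.15. This share and median lay near those of the brightest group, 43.6% and -0.19, while 16.4% of all genes were lower. Psmb5, Psmb6 and Psmb7 encode the chymotrypsin-like, caspase-like and trypsin-like cutting subunits. Psmb5 was at -0.28 ± 0.11 SE (limma adjusted p = 0.0374), Psmb6 at -0.22 ± 0.09 SE (adjusted p = 0.046) and Psmb7 at -0.18 ± 0.08 SE, which did not pass (adjusted p = 0.0762). These calls were near the threshold: over fits that left out each of the 35 arrays in turn, Psmb5 passed in 28 and Psmb6 in 21.

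Psmb4, a beta subunit with no cutting site, fell by 0.39 on the log2 scale (± 0.11 SE, limma adjusted p = 0.00556) and passed in all 35 such fits. Its controls in experiment 2 read 9.36, 9.68, 9.41, 9.42 and 9.15, and Mstn-null arrays ran from 8.65 through 9.17 to 9.40, so the classes overlapped. Psmb1, Psmb2 and Psmb3, which have no cutting site either, were at -0.11, 0.04 and -0.06 and did not pass. Another row of Psmb3 read -0.23 where the row used read -0.06, so its rows disagreed in size. Psmb11, a cutting subunit known from thymus, was at 0.11 (adjusted p = 0.139).

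The ATPases of the 19S cap unfold proteins and open the gate, and 5 of the 6 were lower, with a median of -0.29. Their share of 83.3% stood against 16.4% of all genes and 43.6% of the brightest group. Psmc6 had the largest change of all members. Controls of experiment 2 read 10.18, 10.43, 10.34, 10.64 and 10.58, and Mstn-null arrays ran from 8.16 through 8.72 to 10.41. In experiment 1 controls read 7.78, 7.87 and 8.15, and Mstn-null arrays 7.96, 7.09 and 7.23, which overlapped. The change was -1.22 ± 0.25 SE, 2.34-fold lower (limma adjusted p = 0.000443), and it passed in all 35 fits without 1 array. It was -1.53 in experiment 2 alone and -0.51 in experiment 1 alone, where it did not pass (adjusted p = 0.449).

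Psmc5 (-0.35 ± 0.08 SE, limma adjusted p = 0.000947) and Psmc1 (-0.48 ± 0.12 SE, adjusted p = 0.00179) also fell, and another row of Psmc1 read -0.61. Psmc4 and Psmc2 were both at -0.23 and passed, and they did so in 29 and 25 of the 35 fits without 1 array. Psmc2 turned to 0.01 with the array range as a covariate and to 0.03 in experiment 1 alone. Psmc3, the sixth ATPase, was at -0.08 (adjusted p = 0.314).

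**Figure D2:**
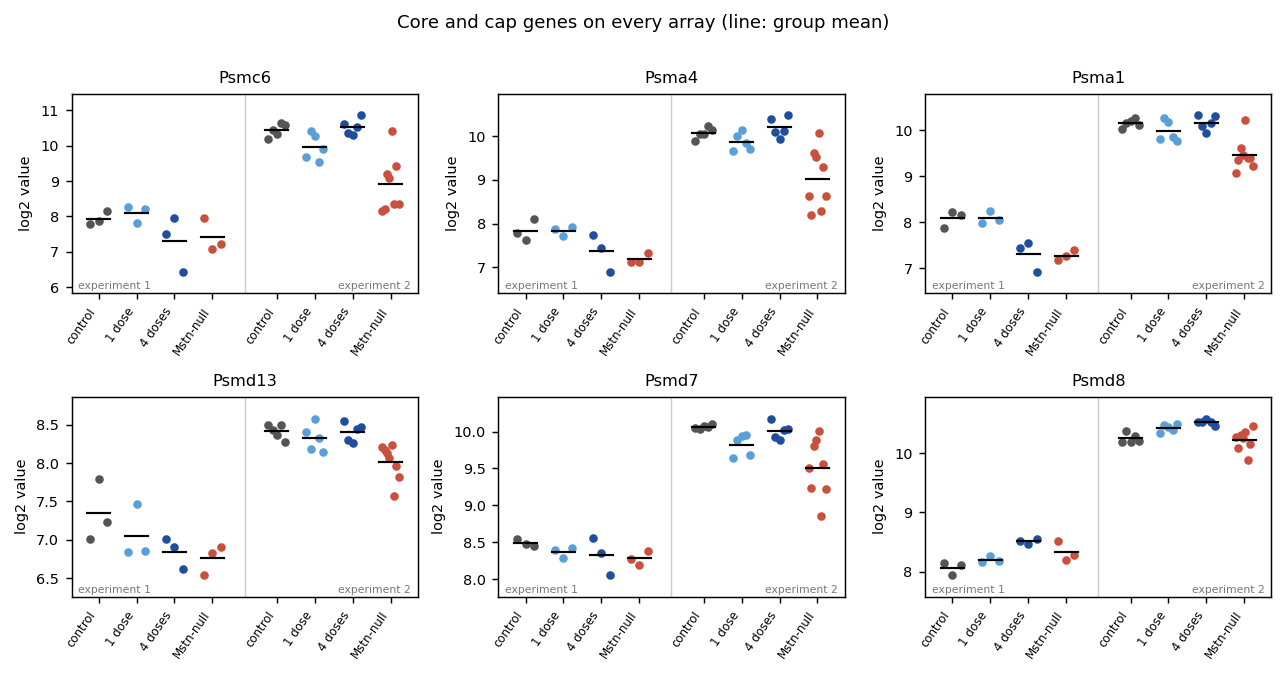
Log2 values of Psmc6, Psma4, Psma1, Psmd13, Psmd7 and Psmd8 on every array, by class and experiment, with the group mean as a line. In experiment 2 the 8 Mstn-null arrays spread widely for Psmc6 (8.16 to 10.41), while the 4-dose arrays of Psmd8 stand above the controls in both experiments.

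Among the 11 other subunits of the 19S cap, 6 were lower and 0 higher, with a median of -0.25. Their share lower was 54.5%, against 16.4% of all genes and 43.6% of the brightest group. Psmd7, a scaffold subunit and partner of the deubiquitinase Psmd14, was lower than every control in both experiments. In experiment 2 controls read 10.05, 10.03, 10.07, 10.06 and 10.10 and Mstn-null arrays 8.86 through 9.54 to 10.01, and in experiment 1 controls read 8.54, 8.48 and 8.45 and Mstn-null arrays 8.27, 8.19 and 8.38. The change was -0.45 ± 0.10 SE (limma adjusted p = 0.00117). Psmd13, a scaffold subunit of the lid, also separated the classes in both experiments. It ran from 7.56 through 8.10 to 8.23 in Mstn-null muscle against 8.28 to 8.50 in controls of experiment 2, and from 6.54 to 6.90 against 7.01 to 7.80 in experiment 1. Its change was -0.47 ± 0.10 SE (limma adjusted p = 0.000733).

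Psmd14 removes ubiquitin chains from the substrate and was at -0.67, and Psmd12, a lid scaffold subunit, at -0.64 (± 0.17 SE, limma adjusted p = 0.00358). Both differed little in experiment 1 alone (-0.10 and -0.13) and more in experiment 2 (-0.90 and -0.86). Psmd6 was at -0.44 and the ubiquitin receptor Psmd4 at -0.25, and these also passed. Psmd1, Psmd3 and Psmd11 were at -0.23, -0.21 and -0.14 and did not pass. The large base subunit Psmd2 was at 0.04, and Psmd8 at 0.06.

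Counted without a model, Mstn-null arrays all lay below all controls of experiment 1 for 18 members (37.5%, against 13.9% of all genes) and above them for 4 (8.33%, against 11.6%). In experiment 2, with 8 arrays against 5, the counts were 4 below (8.33%, against 5.52%) and 3 above (6.25%, against 8.24%). The 4 members below in experiment 2 were Psma3, Psmd7, Psmd13 and Psmg2. The 3 above were Psmb8, Psmg3 and Psmg4.

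Of the other caps and the inhibitor, 1 of 3 was lower, while 16.4% of all genes and 43.6% of the brightest group were. The nuclear cap gene Psme3 fell by 0.25 on the log2 scale (± 0.08 SE, limma adjusted p = 0.0105). Psme4, a cap that opens the core without ATP, was at -0.02 (adjusted p = 0.90), and Psmf1, an inhibitor of the core, at -0.04 (adjusted p = 0.624).

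Among the assembly chaperones, 4 of 7 were lower and 1 higher, while 16.4% of all genes were lower and 25.4% higher. Psmd10 helps to assemble the ATPase base and fell most. Controls of experiment 2 read 8.07, 8.15, 8.03, 8.39 and 8.22, and Mstn-null arrays ran from 6.21 through 6.80 to 8.13. Controls of experiment 1 read 5.86, 5.98 and 5.93, and Mstn-null arrays 5.80, 5.32 and 5.59. All Mstn-null arrays but replicate 5 of experiment 2 lay below all controls of their experiment. The change was -0.97 ± 0.20 SE, 1.96-fold lower (limma adjusted p = 0.000443). The base chaperone Psmd5 (-0.30 ± 0.08 SE, limma adjusted p = 0.00516), and the core chaperones Psmg2 (-0.32 ± 0.11 SE, adjusted p = 0.0211) and Psmg1 (-0.21 ± 0.07 SE, adjusted p = 0.025), were lower too. Psmd9, also a base chaperone, was at -0.16 (adjusted p = 0.0804), and the core chaperone Psmg4 was at 0.16 (adjusted p = 0.165).

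The fall was not even across Mstn-null mice. The mean log2 value of the 48 members on the 8 arrays of experiment 2 ran from 8.40 through a median of 8.69 to 9.04, while the 5 controls lay between 8.93 and 9.04. Replicate 5 gave the highest of the 8 values for 22 of the 25 lower members, and replicate 6, the array of narrowest range (2.52), gave the lowest for 13. In experiment 1, 4-dose replicate 3, with the narrowest range of that experiment (2.71), gave the lowest of 12 values for 12 of these 25 genes. Psmc6 read 6.45 and Psmd10 4.88 on that array, against 7.50 and 7.96 for Psmc6 and 5.80 and 5.88 for Psmd10 on the other 4-dose arrays. In experiment 2, 4-dose replicate 3 had the narrowest range of its group (2.71), the lowest member mean of that group (8.96) and the lowest value of the group for 15 of the 25 genes. Some arrays of wider range were also often lowest. Replicate 5 of the 1-dose class in experiment 2 (range 2.82) was lowest of its group for 15 of the 25 genes. Control replicate 1 of experiment 1 (range 3.00) was so for 16. The part of the range in these places was not tested.

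Results for the Mstn-null class were computed again without 3 arrays, Mstn-null replicates 6, 7 and 8 of experiment 2, which had the narrowest ranges. Then 18 members were lower and 2 higher, with 12.7% of all genes lower. With only arrays whose range lay within that of the other classes of their experiment, which also drops replicate 2, 12 members were lower and 2 higher, with 9.92% of all genes lower, and 6 of the 8 alpha ring genes were still lower. Both alternatives were chosen after the values were seen. Of the 28 calls, 21 held in all 35 fits without 1 array, and 25 had the same sign in both experiments.

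**Figure D3:**
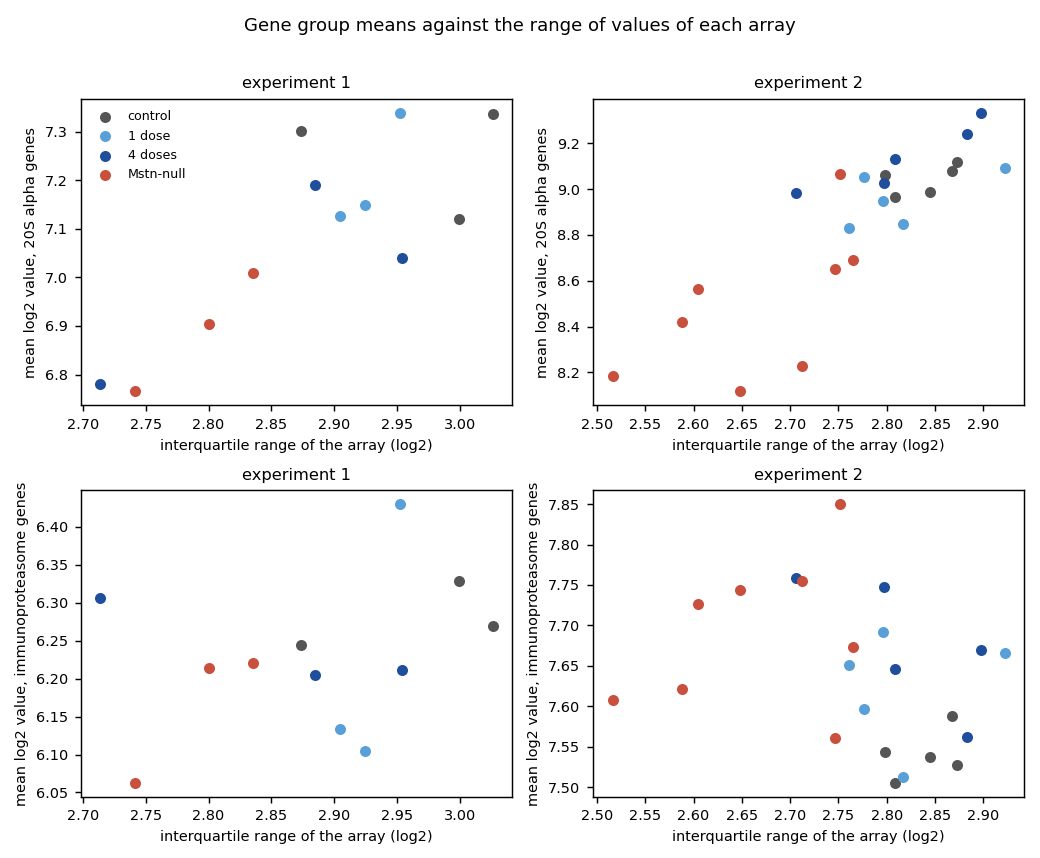
Mean log2 value of the 8 alpha ring genes (top) and the 5 immunoproteasome genes (bottom) on each array against that array's interquartile range, in experiment 1 (left) and experiment 2 (right). Mstn-null ranges in experiment 2 run from 2.52 to 2.76, overlapping those of the treated classes, and their alpha ring means run from 8.12 to 9.07 against 8.96 to 9.12 in controls.

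Over both experiments together the immunoproteasome genes did not fall with the standard subunits, but the experiments differed. In experiment 1 their mean ran from 6.06 to 6.22 on Mstn-null arrays, below all controls (6.24 to 6.33). In experiment 2 it ran from 7.56 to 7.85 on Mstn-null arrays and from 7.51 to 7.59 on controls. Psmb8, Psmb9 and Psmb10 encode the cutting subunits that take the places of Psmb5, Psmb6 and Psmb7, and Psme1 and Psme2 form the cap that interferon induces. Over both experiments 0 of the 5 were lower in Mstn-null muscle and 1 was higher. Their median was 0.07, against -0.64 for the alpha ring, -0.15 for the beta ring and -0.11 for members outside the brightest group. Over all genes 16.4% were lower and 25.4% higher, with a median of 0.09, so the higher count and the median lay near those of all genes. The median of the brightest group was -0.19. Psmb8 rose by 0.21 (± 0.09 SE, limma adjusted p = 0.0472). Psmb9 was at 0.13 ± 0.08 SE (adjusted p = 0.183), Psmb10 at -0.00 ± 0.09 SE (adjusted p = 0.99), Psme1 at 0.07 ± 0.07 SE (adjusted p = 0.422) and Psme2 at -0.09 ± 0.10 SE (adjusted p = 0.461). The call of Psmb8 was at the threshold, held in 15 of 35 fits without 1 array, and was lost after centring each array (adjusted p = 0.371).

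Of the 5 genes, Psmb10 was the one whose change differed between the experiments past the test, and Psmb8 came next. In experiment 2, Psmb8 read 6.30, 6.13, 6.16, 6.26 and 6.23 in controls and 6.37 through 6.52 to 7.0 in Mstn-null muscle, without overlap. In experiment 1 controls read 5.09, 5.32 and 5.21 and Mstn-null arrays 4.85, 5.17 and 5.13. All 8 Mstn-null arrays of experiment 2 were thus above the controls, and the 3 of experiment 1 overlapped the controls at or below their level. The changes within the experiments were 0.39 and -0.16, and their difference of 0.54 did not pass (limma interaction adjusted p = 0.0592).

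Psmb10 read 5.79, 5.89 and 5.88 in controls of experiment 1 and 5.28, 5.29 and 5.43 on its Mstn-null arrays, all lower. In experiment 2 controls read 7.18, 7.37, 7.05, 6.96 and 7.03 and Mstn-null arrays ran from 7.19 through 7.41 to 7.58, so the classes overlapped, with the Mstn-null arrays in the upper part. The change was -0.52 in experiment 1 and 0.25 in experiment 2, a difference of 0.77 ± 0.15 SE (limma interaction adjusted p = 0.0168). The core chaperones Psmg3 and Psmg4 had differences of the same sign, 0.86 (adjusted p = 0.0228) and 0.68 (adjusted p = 0.0389). These 3 were the only members to differ between experiments in Mstn-null mice (1.68% of all genes did), and leaving out control replicate 2 or Mstn-null replicate 1 of experiment 1 brought the count to 0, against 7 without Mstn-null replicate 5 of experiment 2. Over both experiments Psmg3 was called higher (0.28 ± 0.11 SE, adjusted p = 0.0436) although it was lower in experiment 1 (-0.30) and higher in experiment 2 (0.56).

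**Figure D4:**
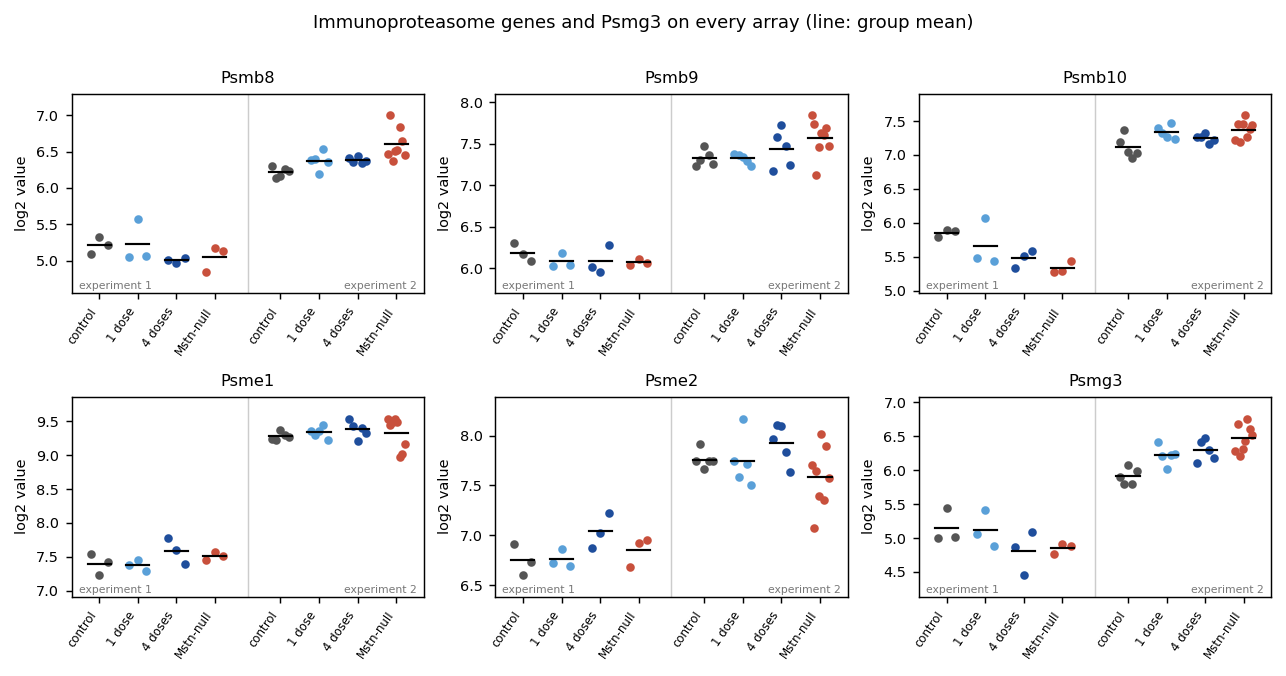
Log2 values of the 5 immunoproteasome genes and Psmg3 on every array, by class and experiment, with the group mean as a line. Psmb8 of Mstn-null mice stands above controls in experiment 2 (6.37 to 7.0 against 6.13 to 6.30) but not in experiment 1.

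Blood cells express the immunoproteasome strongly, so their markers were read beside it. Of 22 macrophage and myeloid genes 9 were higher in Mstn-null muscle and 0 lower, and of 10 lymphocyte genes 3 were higher, among them Cd8a at 0.33. Over all genes 25.4% were higher, a share near that of the lymphocyte list. The mean of the macrophage list in experiment 2 ran from 6.14 to 6.38 in controls and from 6.38 to 6.98 in Mstn-null arrays, and that of the lymphocyte list from 5.06 to 5.21 and from 5.29 to 5.55. In experiment 1, where Psmb8 was not higher, the macrophage mean ran from 4.34 to 4.81 in controls and from 4.41 to 4.63 in Mstn-null arrays. Log2 array values have no true zero, so no marker can be called absent, and the part of such cells in the Psmb8 values was not tested.

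Of 8 interferon and antigen-processing genes, 2 were higher and 1 lower in Mstn-null muscle, shares near those of all genes (25.4% higher and 16.4% lower). Nlrc5, an activator of class I antigen presentation genes, rose by 0.57 (limma adjusted p = 8.18e-06) and Irf1, an interferon-regulated factor, by 0.31 (adjusted p = 0.00039). Irgm1, an interferon-induced GTPase, fell by 0.47 (adjusted p = 0.0109).

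Of 12 partners and regulators of the standard proteasome 7 were lower in Mstn-null muscle and 0 higher, with a median of -0.39, while 16.4% of all genes and 43.6% of the brightest group were lower. Nfe2l1, a transcription factor that induces proteasome genes, was at -0.59 (± 0.09 SE, limma adjusted p = 8.55e-06). Uchl5, a deubiquitinase of the cap, was at -1.29 (adjusted p = 5.04e-05), Pomp, which matures the core, at -0.93 (adjusted p = 0.000449), and Ngly1, which processes Nfe2l1, at -0.50 (adjusted p = 0.000451). Of 9 genes that supply or deliver ubiquitin 6 did not pass, the median was -0.13, and 3 were lower: Nsfl1c (-0.49), Ufd1 (-0.75) and Vcp (-0.30), the last an ATPase that extracts ubiquitinated proteins. Nfe2l1 was 9.20 to 9.41 in the controls of experiment 1 and 8.67 to 8.70 in Mstn-null muscle, and 10.57 to 10.62 against 9.54 to 10.44 in experiment 2, without overlap in either.

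Markers of fibre type and some of those of vessels moved with the class as well. All 10 slow fibre genes were lower in Mstn-null muscle, while 16.4% of all genes and 43.6% of the brightest group were. Their mean ran from 9.91 to 10.55 in the controls of experiment 2 and from 6.77 to 9.38 in Mstn-null arrays. Of 10 endothelial genes 5 were lower (50%), a share above that of all genes and near that of the brightest group. The endothelial mean in experiment 2 ran from 8.02 to 8.14 in controls and from 7.33 to 8.20 in Mstn-null arrays. After 4 doses 9 of the 10 slow fibre genes were lower (1.23% of all genes were). Their median change was -1.49 after 4 doses and -2.22 in Mstn-null muscle. The part of these cells in the proteasome values was not tested.

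Because Nfe2l1 and its relatives bind antioxidant response elements, the RefSeq promoter table (GRCm38.p6) was searched for the core of that element in the 250 bases before each start. It held 43 windows of 40 of the 48 members. The letters TGACNNNGC, read on both strands, were in 5 member windows (11.6%) and in 10.2% of all 32851 windows, a share close to that of promoters at large. Hits in 3 lower members, Psmc6, Psmd12 and Psmb5, and in Psmd9, which did not pass, are printed to show the matches, in the direction of the gene and with the element in capitals, in either orientation. The lower gene Psmb6 has its match in the bases -9 to -1 of its window. That window ends at position 70525356 of chromosome 11 (+ strand), past the annotated gene start at 70525324.

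Psmc6 (chr14:45329582-45329620, + strand): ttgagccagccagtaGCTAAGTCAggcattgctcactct
Psmd12 (chr11:107479278-107479304, + strand): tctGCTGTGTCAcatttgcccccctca
Psmb5 (chr14:54618019-54618057, - strand): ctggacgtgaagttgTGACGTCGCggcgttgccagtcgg
Psmd9 (chr5:123228144-123228182, + strand): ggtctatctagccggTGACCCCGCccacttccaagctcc

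The elements read by interferon signalling were searched in the same windows, because Psmb8 and its relatives respond to it. The gamma-activated site core TTCNNNGAA was in 4.65% of member windows and in 7.02% of all windows, and 1 of the 6 immunoproteasome windows held it, that of Psmb8. The interferon-stimulated core, GAAA and GAAA with any 2 bases between them, was in 6.98% of member windows against 2.98% of all, in Psmb3, Psmd4 and Psmd9, and in 0 of the 6 immunoproteasome windows. The CCAAT box was in 32.6% and 33.8%. The Psmb8 match is printed because it is the only immunoproteasome window with either set of interferon letters.

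Psmb8 (chr17:34198083-34198121, + strand): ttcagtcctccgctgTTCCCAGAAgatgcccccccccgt

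After 1 dose of ActRIIB-Fc, 0 of the 48 members were lower and 0 higher (limma adjusted p under 0.05), and 2 had an unadjusted p under 0.05, Psma8 and Psmd8. Over all genes 1.11% were called, 0.572% lower and 0.542% higher, and 2377 of the 19938 had an unadjusted p under 0.05. The changes ran from -0.24 to 0.21 with a median of -0.05, and 33 were negative. The alpha ring had a median of -0.11, the 19S cap -0.10 and the immunoproteasome genes 0.02. Psmc6 was at -0.24 (95% interval -0.79 to 0.32), and Psma1, Psma2 and Psma4 were between -0.12 and -0.10. Psma8, the subunit known from testis, was at 0.21 ± 0.09 SE (limma adjusted p = 0.313).

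Psmd7 came nearest to a fall after 1 dose. In experiment 1 treated arrays read 8.39, 8.29 and 8.42, all below the controls at 8.54, 8.48 and 8.45. In experiment 2 they read 9.65, 9.89, 9.94, 9.95 and 9.68, again all below controls that began at 10.03. The groups did not overlap in either experiment, yet the change of -0.20 ± 0.11 SE did not pass (limma adjusted p = 0.496). Counted in this way after 1 dose, 3 members lay below all controls in experiment 1 (Psmc1, Psmc3 and Psmd7, against 4.47% of all genes) and 1 above (Psmd8, against 4.71%). In experiment 2 the members below were Psmd7 and Psmd11 (against 2.94% of all genes), and Psma8 lay above (against 4.17%).

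After 4 doses, 0 members were lower and 1 was higher, and 3 had an unadjusted p under 0.05 (limma). Over all genes 3.14% were called, 1.23% lower and 1.91% higher, and 2919 of the 19938 had an unadjusted p under 0.05. The changes ran from -0.29 to 0.34 with a median of 0.03. The member that rose was Psmd8, a scaffold subunit of the 19S lid.

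Psmd8 was the only 1 of the 48 members called after 4 doses. That share lay near the 1.91% of all genes that were higher, so the call does not set the proteasome genes apart from other genes. The values of Psmd8 are given because it was the member called. Controls of experiment 1 read 8.14, 7.95 and 8.11, 1-dose arrays 8.16, 8.26 and 8.18, and 4-dose arrays 8.52, 8.47 and 8.54. In experiment 2 controls read 10.19, 10.37, 10.19, 10.29 and 10.20, 1-dose arrays 10.33, 10.47, 10.45, 10.39 and 10.50, and 4-dose arrays 10.52, 10.53, 10.58, 10.52 and 10.46. All 4-dose arrays lay above all controls in both experiments, and the 1-dose arrays lay above all controls in experiment 1 only.

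The change of Psmd8 after 4 doses was 0.34 ± 0.07 SE, 1.26-fold (95% interval 0.20 to 0.48, limma adjusted p = 0.00231). It was 0.44 in experiment 1 alone (adjusted p = 0.117) and 0.27 in experiment 2 alone (adjusted p = 0.0962), and without any 1 array it stayed between 0.31 and 0.36 with an adjusted p of at most 0.00676. After 1 dose Psmd8 was at 0.16 ± 0.07 SE (limma adjusted p = 0.32), and the difference of 0.18 between 4 doses and 1 dose did not pass (adjusted p = 0.435).

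The rest of the standard proteasome did not pass after 4 doses. Psma1 was at -0.29 ± 0.14 SE (limma adjusted p = 0.322), with -0.77 in experiment 1, where treated arrays read 7.45, 7.55 and 6.92, and 0.01 in experiment 2. Psme2 was at 0.21 ± 0.10 SE (limma adjusted p = 0.329). The alpha ring had a median of -0.04, the beta ring 0.02, the 19S ATPases 0.00 and the immunoproteasome genes 0.03. Psmc6, the member with the largest change in Mstn-null muscle, was at -0.18 after 4 doses, with a 95% interval from -0.73 to 0.38.

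Counted by arrays, 7 members lay below all controls after 4 doses in experiment 1 (Psma1, Psmb3, Psmb8, Psmb10, Psmd4, Psmd13 and Psme3, against 7.8% of all genes) and 3 above (Psmb11, Psmd8 and Psme4, against 5.78%). In experiment 2 0 lay below (against 2.8%) and 3 above (Psmb8, Psmd8 and Psmg3, against 4.15%). Psmb8 was thus below all controls in one experiment and above all in the other. Its 4-dose arrays read 5.01, 4.97 and 5.04 in experiment 1, and 6.42, 6.36, 6.45, 6.34 and 6.37 in experiment 2. The difference between the experiments was 0.37 (limma interaction adjusted p = 0.607), and 0 members differed between experiments after 1 dose (limma, 0% of all genes) or 4 doses (0.00502%).

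The macrophage and myeloid markers moved with the 4-dose class as well. Of 22 genes 11 were higher after 4 doses (limma, 1.91% of all genes were), and 0 after 1 dose (0.542% of all genes). After 1 dose 11 of the 22 had an unadjusted p under 0.05, against 2377 of all 19938 genes. Their mean in experiment 2 ran from 6.79 to 6.98 after 4 doses, against 6.14 to 6.38 in controls, while the mean of the 5 immunoproteasome genes ran from 7.56 to 7.76 against 7.51 to 7.59. In experiment 1 the macrophage mean ran from 4.65 to 4.83 after 4 doses against 4.34 to 4.81 in controls, and the immunoproteasome mean from 6.20 to 6.31 against 6.24 to 6.33. Of the proteasome partners, the ubiquitin genes and the antigen-processing genes, 0 passed after 1 dose or 4 doses. In the same order, 1, 0 and 2 had an unadjusted p under 0.05 after 1 dose, and 2, 0 and 3 after 4 doses. Among all 19938 genes, 2377 after 1 dose and 2919 after 4 doses had one.

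Between 4 doses and 1 dose, 0 members were lower and 0 higher (limma), against 0.321% of all genes called, 0.0451% lower and 0.276% higher. An unadjusted p under 0.05 was found for 7 of the 48 members and for 1482 of all 19938 genes. The smallest p were those of Psmd8 (0.18), Psmb7 (0.22), Psmd3 (-0.22), Psma6 (0.21) and Psmg1 (-0.18). Their adjusted p ran from 0.435 to 0.585.

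Against Mstn-null muscle both treated classes had higher standard subunits. These comparisons use the same Mstn-null arrays as the one against control, so they are no separate evidence that those arrays are low. After 4 doses 25 members were higher and 0 lower (limma, 20.2% of all genes called, 11.4% higher and 8.75% lower, and 34.8% higher in the brightest group). The smallest p were those of Psma5 (0.53, adjusted p = 0.000777), Psma2 (0.54, adjusted p = 0.00100), Psma4 (0.84, adjusted p = 0.00227), Psmc1 (0.51, adjusted p = 0.00302) and Psmd12 (0.72, adjusted p = 0.00363). Of the alpha ring 7 of 8 were higher, and of the immunoproteasome 1 of 5, Psme2 at 0.30 (adjusted p = 0.026).

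After 1 dose 20 members were higher than in Mstn-null muscle and 0 lower (limma, 16.8% of all genes called, 10.9% higher and 5.9% lower, and 32.6% higher in the brightest group). The smallest p were those of Psma2 (0.58, adjusted p = 0.000365), Psma1 (0.63, adjusted p = 0.000925), Psma4 (0.81, adjusted p = 0.00253), Psmd10 (0.80, adjusted p = 0.00581) and Psmc6 (0.99, adjusted p = 0.00673). Of the alpha ring 6 of 8 were higher, and of the immunoproteasome 0 of 5. With the array range as a covariate, 0 members were higher than in Mstn-null muscle after 4 doses or after 1 dose. In these fits 0.552% and 0.12% of all genes were higher. The count after 1 dose was 11 without 1-dose replicate 3 of experiment 2 and 13 without Mstn-null replicate 6 of experiment 2.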

How the data were processed

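RNA of 35 quadriceps samples was measured on 1 array per mouse, with control, Mstn-null, 1-dose and 4-dose classes in 2 experiments. The deposited table holds log2 expression values for 35556 rows. Per the submitters' processing notes, RMA, limma 3.4.4 and R 2.11.1 were used, with no role or order given, and the sources used here do not give the genome build behind the probes. Rows were named by the platform annotation: 21789 had 1 symbol, 1621 several and 12146 none. For each of 19938 genes the brightest row, by its mean across the 35 arrays, was used (999 genes had more than 1 row).

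Classes were compared with limma 3.58.1 in R 4.3.3, in 1 fit of all arrays with experiment as a covariate, moderated variances and Benjamini-Hochberg adjustment over all genes, at an adjusted p under 0.05. Differences between experiments were tested as an interaction. The fit was tested on simulated data. The number of arrays limits the precision, and array values give no depth.

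Alternatives were quantile normalization, centring on array medians, the array range as a covariate, each experiment alone, array weights, other row choices, dim genes left out, a replicate block and each array left out. The 3 members with the smallest p in each role, and all immunoproteasome genes, get full statistics against control, and the 5 with the smallest p in the other comparisons. Members and gene lists were chosen with earlier results of these data known.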

Additional observations from a re-analysis of the deposited data

Results flagged for a closer look

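In 7 of 192 sets of arrays of 1 class and experiment with 4 to 10 arrays (3.65%), 1 array stood far from the others for 1 gene. Chance gives about 1 in 20. Psma1 read 10.21 on Mstn-null replicate 5 of experiment 2, where the next value was 9.61. On Mstn-null replicate 6 of experiment 2, Psmb3 read 9.38 (next 9.96) and Psmd4 read 8.99 (next 9.42). Psme4 read 9.93 on Mstn-null replicate 2 of experiment 2 (next 10.98). After 4 doses, Psme3 read 8.62 on replicate 3 of experiment 2 (next 8.91). After 1 dose, Psmd1 read 10.31 on replicate 5 (next 10.69) and Psmd5 read 8.26 on replicate 3 (next 7.89), both in experiment 2.

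The change in Mstn-null muscle differed between experiment 2 and experiment 1 by 0.77 for Psmb10, by 0.86 for Psmg3 and by 0.68 for Psmg4, each past the interaction test in limma (adjusted p = 0.0168, 0.0228 and 0.0389). Psmb8 moved in opposite directions in the experiments, -0.16 and 0.39 in Mstn-null muscle (a difference of 0.54, interaction adjusted p = 0.0592) and -0.20 and 0.17 after 4 doses (0.37, adjusted p = 0.607). Psmg3 did so as well, with -0.30 and 0.56 in Mstn-null muscle and -0.34 and 0.38 after 4 doses (0.73, interaction adjusted p = 0.214).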

How the results depend on the processing

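Of the counts below, those with the range of the genes tested as a covariate, without the 3 arrays of narrowest range, and with only arrays of a range within that of the other classes were chosen after seeing the data. Members lower in Mstn-null muscle than in control (25) numbered 14 under quantile normalization (13.6% of all genes lower) and 12 with arrays of matching range (9.92%). They numbered 0 with either range covariate (0.492% of all genes lower with the array range, 1.36% with that of the genes tested). The count was 2 in experiment 1 alone, and 20 to 29 with 1 array left out. Members higher there (3) numbered 0 when centred, 1 with the array range, 0 with the range of the genes tested, 0 in experiment 1 and 5 in experiment 2 alone, and 1 to 3 with 1 array left out. Psmd8 after 4 doses was called in neither experiment alone: 0 members were higher in experiment 1, and in experiment 2 the 1 called was Psmg3. Between 4 doses and 1 dose, array weights gave 1 higher. Members higher after 4 doses than in Mstn-null muscle (25) numbered 15 under quantile normalization, 0 with the array range, 1 with that of the genes tested, 0 in experiment 1, 13 without the narrowest arrays, 5 with matching range and 19 to 26 with 1 array left out, and those lower 0 to 1. Members higher after 1 dose than in Mstn-null muscle (20) numbered 10, 0, 1, 1, 6, 2 and 11 to 22 in the same order, and those lower 2 under quantile normalization, 1 in experiment 2, 1 with array weights and 0 to 1 with 1 array left out. Of all genes, 9.31% after 4 doses and 9.17% after 1 dose were higher than in Mstn-null muscle under quantile normalization. With matching range these shares were 2.77% and 3.39%, and without the narrowest arrays 5.32% and 5.42%. They were 0.552% and 0.12% with the array range, and 1.1% and 1.31% with that of the genes tested. With the array range, 6 members differed between experiments in Mstn-null muscle and 1 after 4 doses. With 1 array left out the count for Mstn-null muscle ran from 0 to 7. Signs turned for Psmb8 (-0.16) and Psmg3 (-0.30) in experiment 1, Psmc2 with the array range (0.01165) and in experiment 1 (0.0275), Psmg2 with the array range (0.0917) and that of the genes tested (0.0647), and Psmg3 with the latter (-0.0129). The causes were not tested.

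Same-numbered arrays of different classes correlated from -0.53 to 0.42 in experiment 1 (7 of 18 pairs over 0.1) and from -0.60 to 0.38 in experiment 2 (11 of 30). For arrays with different numbers, 15 of 36 pairs and 42 of 165 were over 0.1. Correlations this weak do not show a pairing of the mice and cannot exclude one. With the replicate block, 16 members were lower in Mstn-null muscle than in control (11.8% of all genes lower). Against Mstn-null muscle 10 members were higher after 4 doses (4.19% of all genes) and 3 after 1 dose (4.5%). The block gives no weight to Mstn-null replicates 6, 7 and 8 of experiment 2, which have no partner.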
